A study of Mus musculus with 9 samples.

Results

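The genes described are 28 genes of cholesterol synthesis and of its control by SREBP2, taken by name from a list of mevalonate and sterol synthesis enzymes, sterol carriers and SREBP processing proteins. All 28 matched 1 Ensembl identifier each among the 55487 gene identifiers counted, and all 28 passed the filter on low counts, which 13453 genes passed in all. The rule that lists them uses no measured value, though the genes were chosen with earlier results of these data known. The libraries, 3 in each of 3 groups, were made from polyadenylated RNA of J774A.1, a macrophage line of mouse origin. The groups carried a control guide RNA named safe sgRNA (genotype label WT), or Slc12a9 sgRNA 11 or Slc12a9 sgRNA 15, guides against a lysosomal member of the SLC12 transporter family. All groups were grown in DMEM with 10% fetal bovine serum and glutamine, and were then held for 6 h in DMEM without serum or glutamine before lysis. The labels call the guide-bearing cells knockdown while the series' design text speaks of knockout, and neither says whether they were a pool or a clone.

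Cholesterol is built in the cytosol and endoplasmic reticulum from acetyl-CoA, which is turned into mevalonate, then into isoprenoid diphosphates, then into squalene, and finally into sterols. SREBP2, the product of Srebf2, is a transcription factor made as a membrane precursor, which SCAP carries to the Golgi when membrane sterol is low and which INSIG proteins hold back in the endoplasmic reticulum when sterol is plentiful. In the Golgi the proteases encoded by Mbtps1 and Mbtps2 release its active part, which switches on most of the synthesis enzymes, Insig1 and Srebf2 itself. Macrophages also take cholesterol in with engulfed material and release it from lysosomes.

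Sequences before the gene starts bear on this control, because SREBP2 binds sterol regulatory elements there, often beside the CCAAT box bound by NF-Y. RefSeq promoters (GRCm38.p6, from 250 bases before to 50 after each start) were held for 24 of the 28 genes, all but Fdps, Stard4, Sqle and Fdft1. The letters TCACNCCAC, searched on both strands, stood in the promoter of 1 of these 24 genes, Hmgcs1. They stood in 1.44% of the 27025 genes of the promoter table and in 1.37% of the 9358 tested genes that had an entry. CCAAT, also searched on both strands and with no letters in common with the first motif's match in Hmgcs1, stood in 20 of the 24, all but Acat2, Scap, Mbtps1 and Mbtps2. It stood in 41.1% of the 27025 genes of the promoter table and in 43.4% of the 9358 tested genes that had an entry. A match is a description of these letters and not a binding site, and the lack of a match does not show that a site is absent. By the calls described below for the mean of both guides, all the genes with CCAAT were lower except Insig2, which was higher. Of the 4 without it, Acat2 was lower, Mbtps1 higher, and Scap and Mbtps2 were not called. Among all tested genes 33.3% were called lower in that comparison. A link between CCAAT and the direction of change was not tested. As examples, 4 genes were picked by the changes described below. Hmgcs1 and Hsd17b7 are enzymes that fell with both guides, Insig1 is the gene on which the guides differed most, and Mbtps1 rose with both. Stretches of these 4 promoters are shown. Each is written 5′ to 3′ on the gene's own strand, ends before the gene start of both RefSeq and GENCODE M21, and has the matches to TCACNCCAC, CCAAT and its reverse complement ATTGG in capitals. They lie at chr13:119690101-119690350 (plus strand) for Hmgcs1, chr1:169969242-169969455 (minus strand) for Hsd17b7, chr5:28071162-28071362 (plus strand) for Insig1 and chr8:119558762-119559011 (minus strand) for Mbtps1.
Hmgcs1: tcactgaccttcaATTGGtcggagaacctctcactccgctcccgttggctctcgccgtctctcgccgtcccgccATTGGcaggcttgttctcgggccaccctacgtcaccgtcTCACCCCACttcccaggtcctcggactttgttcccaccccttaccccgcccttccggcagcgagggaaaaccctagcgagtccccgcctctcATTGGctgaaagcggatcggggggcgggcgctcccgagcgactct
Hsd17b7: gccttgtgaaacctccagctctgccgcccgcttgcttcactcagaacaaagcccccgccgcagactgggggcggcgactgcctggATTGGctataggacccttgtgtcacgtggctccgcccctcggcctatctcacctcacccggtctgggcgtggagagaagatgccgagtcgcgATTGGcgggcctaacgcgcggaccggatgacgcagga
Insig1: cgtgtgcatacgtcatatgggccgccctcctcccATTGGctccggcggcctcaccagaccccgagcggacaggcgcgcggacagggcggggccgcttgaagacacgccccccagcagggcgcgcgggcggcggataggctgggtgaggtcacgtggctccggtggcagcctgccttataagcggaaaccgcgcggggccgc
Mbtps1: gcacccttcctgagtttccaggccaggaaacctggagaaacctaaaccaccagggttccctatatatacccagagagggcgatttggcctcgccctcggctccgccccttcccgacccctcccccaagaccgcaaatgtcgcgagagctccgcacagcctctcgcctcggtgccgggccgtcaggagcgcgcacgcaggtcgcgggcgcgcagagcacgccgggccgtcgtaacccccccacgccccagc
The Hmgcs1 stretch holds 1 match to TCACNCCAC, which begins 137 bases before the RefSeq start, and 3 CCAAT boxes, all on the reverse strand. The Hsd17b7 stretch holds 2 CCAAT boxes and the Insig1 stretch 1, all on the reverse strand. The Mbtps1 stretch holds neither motif.

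Gene counts summed to 16405296 to 25613961 per library, and levels are given as CPM, read counts relative to library size, scaled by edgeR's TMM factors, which were 0.979 to 1.02. Replicates are separate samples in the labels, which do not say that they came from separate cultures, so p-values cover no more than the spread between samples, which may be technical. Safe replicate 1 differed most from its group (chi-square per degree of freedom 6.83 and 5.16, against 1.76 to 4.05 for the other 7 replicate pairs). Slc12a9, the targeted gene, ranged from 44.8 to 53.5 CPM with safe sgRNA. It ranged from 62.6 to 67.0 with sgRNA 11 and from 48.2 to 51.7 with sgRNA 15. Its mRNA was thus higher with sgRNA 11 (log2 0.43, SE 0.05, and 0.28 to 0.50 over the 19 alternatives tried). With sgRNA 15 it overlapped the safe libraries (log2 0.05, and -0.06 once trends with GC content and exon length were removed, the GC and length correction). Slc12a9 mRNA was lower with neither guide and does not check the labels. Groups are therefore named by guide, and directions are those of the libraries labelled with it. All 10 macrophage markers examined exceeded 1 CPM in each group, and their sum was 6065 to 6221 CPM with safe sgRNA, 9519 to 9824 with sgRNA 11 and 7844 to 7915 with sgRNA 15. Lyz2, the lysozyme gene, took the greatest part of that difference, with means of 1727, 4513 and 3567 CPM, and the markers did not move one way, since Cd14 was lower in both guides' libraries (892, 569 and 647 CPM). The part of these shifts in the results below was not tested. Marker sums of other cell types stayed under 5 CPM: at most 2.61 for fibroblasts, 4.09 for neutrophils, 0.362 for B cells, 0.0505 for T cells and 0.0540 for epithelium, while mast cell markers were at 0. The defining genes Col1a2, Col3a1, S100a9, Ms4a1, Cd3e, Cd8a, Epcam, Krt8 and Krt18 were at 0. In bulk RNA, fewer cells expressing a gene and less RNA per cell cannot be told apart.

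Most of the 28 genes were lower with each guide, and more so with sgRNA 11. In edgeR's quasi-likelihood test, at a Benjamini-Hochberg adjusted p under 0.05 over all tested genes, 23 were lower, 3 higher and 2 not called with sgRNA 11. Among all tested genes 32.4% were called lower and 33.3% higher in that comparison. The 28 had a median of -0.92 on the log2 scale, and all tested genes one of 0.01. With sgRNA 15, 20 were lower, 3 higher and 5 not called, where 30.7% of all tested genes were lower and 32.2% higher, and the median of the 28 was -0.45 against 0.01. A fall of at least 1.5-fold beside the same adjusted p was reached by 18 of the 28 with sgRNA 11, against 9.20% of all tested genes, and by 10 with sgRNA 15, against 7.35%. With the mean of both guides, which is the study's own contrast of Slc12a9 guides with control, 24 were lower and 2 higher, against 33.3% and 34.7% of all tested genes, and the median was -0.68. Both guides are set against the same 3 safe libraries, so the 2 comparisons are not independent. The 28 genes together took 0.350%, 0.357% and 0.357% of gene counts in the safe libraries, 0.232%, 0.231% and 0.230% with sgRNA 11, and 0.276%, 0.281% and 0.276% with sgRNA 15. The 3 groups did not overlap in this share. Srebf2 held the most counts of any of the 28, and without it the group means were 0.285%, 0.181% and 0.222%.

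**Figure D1:**
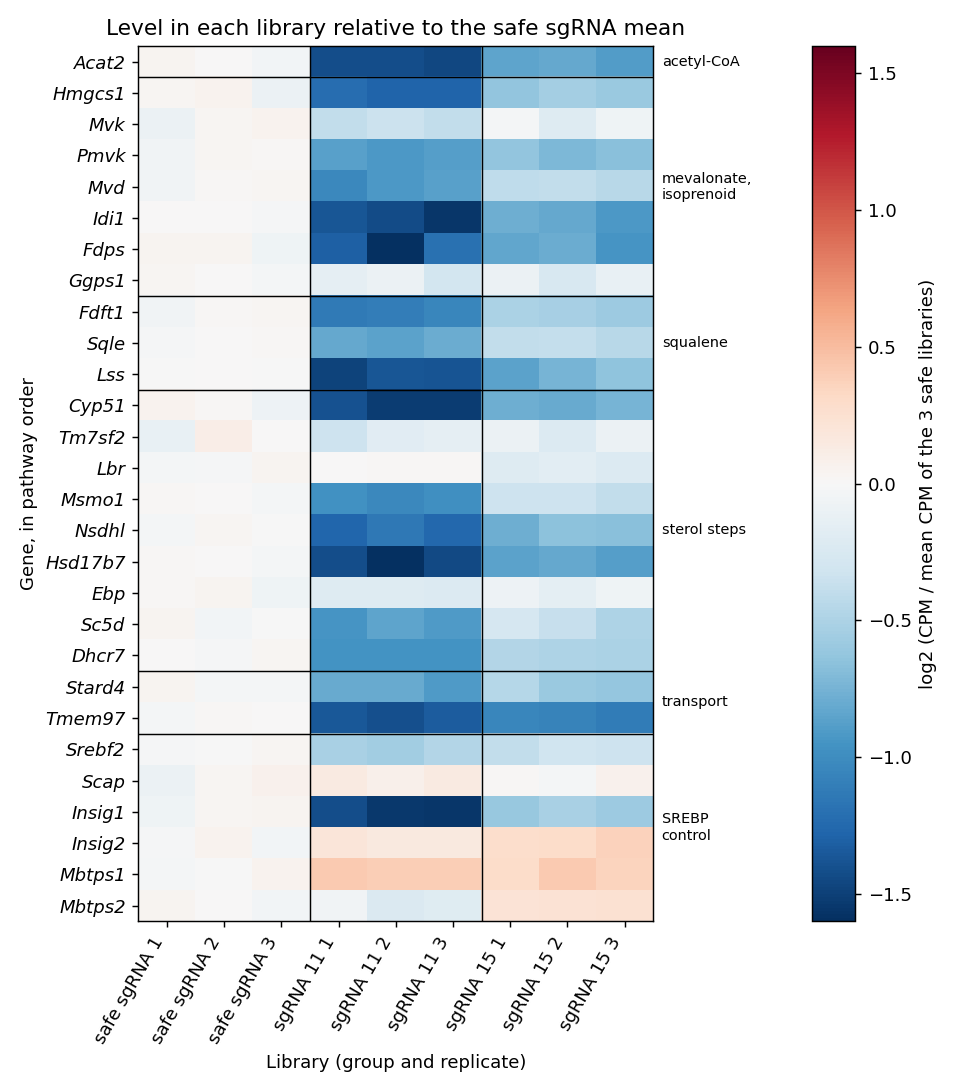
Heat map of the 28 genes (rows, in pathway order) in the 9 libraries (columns), coloured by the log2 ratio of the library's CPM to the mean CPM of the 3 safe libraries (no unit). Most synthesis genes are dark blue in the sgRNA 11 columns and paler blue in the sgRNA 15 columns, while Insig2 and Mbtps1 are red in both and Mbtps2 in those of sgRNA 15.

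Acat2, the cytosolic thiolase that joins acetyl-CoA units into acetoacetyl-CoA at the head of the pathway, fell with both guides. It stood at 132, 129 and 124 CPM with safe sgRNA, 47.9, 47.7 and 46.7 in the sgRNA 11 libraries, and 71.6, 72.3 and 69.1 in those of sgRNA 15. The groups did not overlap, with sgRNA 11 lowest and sgRNA 15 between. Its log2 fold change was -1.44 (SE 0.04, edgeR adjusted p = 9.40e-50) with sgRNA 11, a 2.71-fold fall, and -0.85 (SE 0.04, adjusted p = 3.81e-35) with sgRNA 15, a 1.81-fold fall.

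The 7 genes from HMG-CoA to the isoprenoid diphosphates changed by a median of -0.94 (log2) with sgRNA 11 and -0.59 with sgRNA 15, with smaller changes at Mvk and Ggps1 than at the other 5. Hmgcs1, the cytosolic HMG-CoA synthase whose promoter stretch is shown above, stood at 101, 103 and 92.9 CPM with safe sgRNA, 42.4, 40.6 and 40.7 in the sgRNA 11 libraries, and 64.2, 68.0 and 65.4 in those of sgRNA 15. All 3 groups were apart, and the log2 fold changes were -1.26, a fall of 2.40-fold, and -0.59 (SE 0.04 each). Mvk, the mevalonate kinase, stood at 37.3, 40.6 and 41.2 CPM with safe sgRNA, 30.1, 31.4 and 30.2 in the sgRNA 11 libraries, and 39.0, 34.5 and 37.7 in those of sgRNA 15. Its sgRNA 11 libraries lay below all safe ones, whereas those of sgRNA 15 overlapped them. Mvk fell with sgRNA 11 (log2 -0.37, SE 0.06, edgeR adjusted p = 1.53e-08) and was not called with sgRNA 15 (log2 -0.10, SE 0.06, adjusted p = 0.119), where it was called lower with the GC and length correction (log2 -0.20) and without safe replicate 1 (-0.15) or sgRNA 15 replicate 1 (-0.14). The next kinase, Pmvk, fell from 50.2 ± 1.56 to 27.1 ± 0.526 and 31.5 ± 0.891 CPM (SD, n = 3 each).

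Mvd, the decarboxylase that yields isopentenyl diphosphate, stood at 83.0, 86.8 and 88.1 CPM with safe sgRNA, 42.1, 45.5 and 47.0 in the sgRNA 11 libraries, and 64.7, 65.2 and 63.5 in those of sgRNA 15. The groups did not overlap, and the log2 fold changes were -0.94 (SE 0.04) and -0.41 (SE 0.04). Idi1, which isomerises that product, stood at 71.1, 70.8 and 69.9 CPM with safe sgRNA, 27.4, 26.2 and 24.1 in the sgRNA 11 libraries, and 41.1, 40.1 and 37.5 in those of sgRNA 15. It fell 2.73-fold and 1.78-fold (log2 -1.45 and -0.83, SE 0.05 each), again with no overlap between groups. Fdps, the farnesyl diphosphate synthase, fell from 11.1 ± 0.440 to 4.28 ± 0.690 and 6.12 ± 0.334 CPM (SD, n = 3 each, with log2 -1.37, SE 0.12, and -0.86, SE 0.11). Its value is uncertain, since 26.7% of its exon length is shared with the model Gm43738 on the same strand, where reads can be ambiguous. Ggps1, which takes the branch to geranylgeranyl diphosphate and away from sterols, stood at 14.5, 14.2 and 13.9 CPM with safe sgRNA, 12.8, 13.3 and 11.6 in the sgRNA 11 libraries, and 13.3, 11.9 and 13.1 in those of sgRNA 15. Its guide libraries all lay below the safe ones, but by little. Ggps1 was called with neither guide (log2 -0.19, SE 0.09, edgeR adjusted p = 0.0564, and -0.16, SE 0.09, adjusted p = 0.0990) and was called lower for their mean (log2 -0.18, SE 0.08, adjusted p = 0.0356). Of the 18 alternatives tried for that mean, 10 lost the call, among them those without safe replicate 1 or 2, sgRNA 11 replicate 3 or sgRNA 15 replicate 2 (adjusted p 0.0575 to 0.112). The sgRNA 11 value was called without safe replicate 3, sgRNA 11 replicate 2 or sgRNA 15 replicate 3 (log2 -0.22 to -0.20), and that of sgRNA 15 after the GC and length correction (-0.19).

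**Figure D2:**
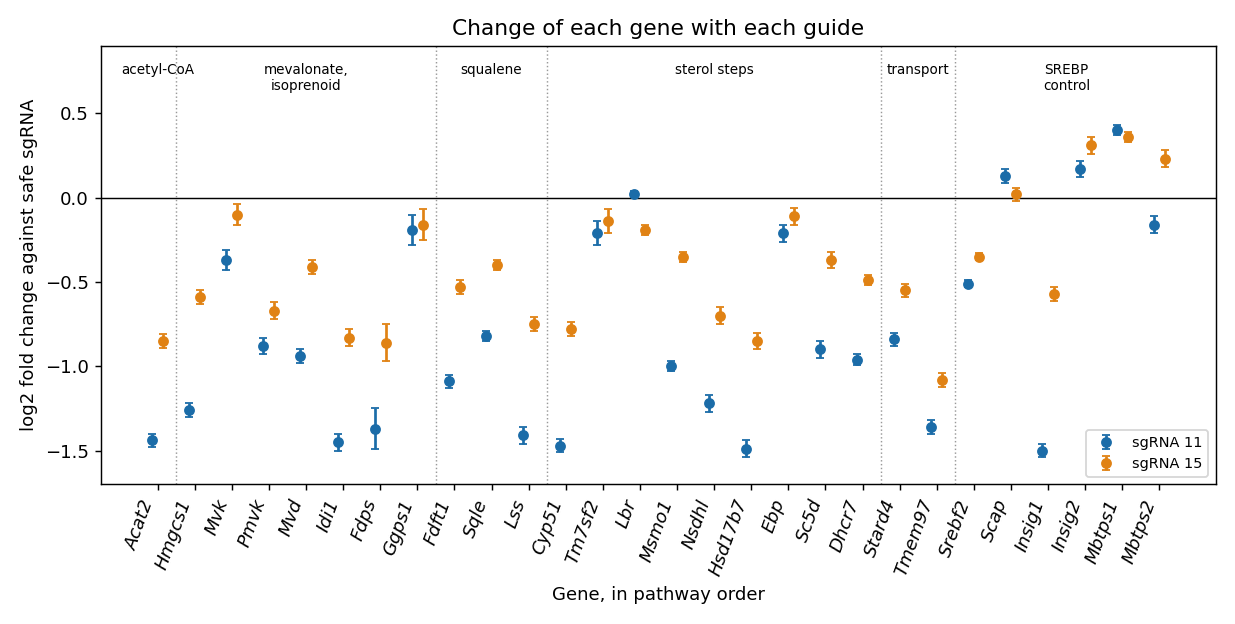
Log2 fold change against safe sgRNA (vertical axis, log2 units) of each of the 28 genes in pathway order, with sgRNA 11 in blue and sgRNA 15 in orange. Points are edgeR estimates from 3 libraries a group and bars are 1 standard error; the synthesis genes lie mostly below 0, from -1.49 (Hsd17b7 with sgRNA 11) to 0.02 (Lbr with sgRNA 11).

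The 3 genes that make and close squalene fell with both guides (median log2 -1.09 and -0.53). Squalene synthase, Fdft1, stood at 85.2, 89.8 and 89.9 CPM with safe sgRNA, 40.2, 41.0 and 42.7 in the sgRNA 11 libraries, and 62.2, 61.1 and 59.1 in those of sgRNA 15. The groups were apart (log2 -1.09 and -0.53, SE 0.04 each). An 18.3% share of its exon length lies opposite Ctsb, a lysosomal protease that rose from 2716 ± 15.0 to 3327 ± 19.0 and 5468 ± 23.5 CPM (SD, n = 3 each), and the strand setting of the counting is not given, so Fdft1 is uncertain. Sqle, the epoxidase that oxidises squalene, had the highest level per kilobase of exon of the 3 (61.6 CPM per kilobase with safe sgRNA) and stood at 339, 342 and 345 CPM with safe sgRNA, 194, 189 and 198 in the sgRNA 11 libraries, and 261, 263 and 251 in those of sgRNA 15. It fell 1.76-fold and 1.32-fold (log2 -0.82 and -0.40, SE 0.03 each), with all groups apart. Lss, which folds the epoxide into lanosterol, stood at 92.9, 93.6 and 93.0 CPM with safe sgRNA, 33.4, 36.0 and 35.7 in the sgRNA 11 libraries, and 51.6, 55.5 and 59.7 in those of sgRNA 15. Its falls were 2.66-fold and 1.68-fold (log2 -1.41, SE 0.05, and -0.75, SE 0.04), with all groups apart.

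Of the 9 genes that turn lanosterol into cholesterol, 8 fell with sgRNA 11 and 7 with sgRNA 15 (median log2 -0.96 and -0.37). Among all tested genes 32.4% and 30.7% were called lower in these comparisons. With sgRNA 11, 6 of the 9 fell by 0.90 or more (log2), while Tm7sf2, Lbr and Ebp moved less. Cyp51, the lanosterol demethylase, stood at 168, 163 and 152 CPM with safe sgRNA, 61.2, 56.1 and 56.4 in the sgRNA 11 libraries, and 93.8, 92.2 and 96.0 in those of sgRNA 15. It fell 2.78-fold and 1.72-fold (log2 -1.47 and -0.78, SE 0.04 each) with no overlap. Msmo1 and Nsdhl act later, on the methyl groups of the sterol nucleus. Msmo1 fell from 173 ± 3.46 to 86.8 ± 2.20 and 136 ± 2.95 CPM, and Nsdhl fell from 57.3 ± 1.14 to 24.6 ± 1.14 and 35.2 ± 1.59 CPM (SD, n = 3 each). Hsd17b7, the ketoreductase of the same step, stood at 88.5, 88.1 and 85.9 CPM with safe sgRNA, 32.7, 28.3 and 32.2 in the sgRNA 11 libraries, and 48.4, 49.4 and 47.5 in those of sgRNA 15. Its fall with sgRNA 11 was 2.81-fold (log2 -1.49, SE 0.05, edgeR adjusted p = 5.65e-45), close to that of Cyp51, and it was 1.81-fold with sgRNA 15 (log2 -0.85, SE 0.05, adjusted p = 4.83e-30).

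Sc5d, a sterol desaturase, fell from 76.5 ± 2.29 to 41.1 ± 1.52 and 58.9 ± 4.72 CPM (SD, n = 3 each; log2 -0.90 and -0.37, SE 0.05 each). Dhcr7, a reductase at the end of the pathway, stood at 167, 165 and 170 CPM with safe sgRNA, 86.4, 86.4 and 86.0 in the sgRNA 11 libraries, and 121, 119 and 118 in those of sgRNA 15. The groups were apart by far more than their spread (log2 -0.96 and -0.49, SE 0.03 each).

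The other 3 sterol enzymes changed by at most 0.21 on the log2 scale with either guide in the edgeR test without correction. Tm7sf2 and Lbr encode reductases for the same sterol double bond, and Lbr also anchors heterochromatin at the inner nuclear membrane. Tm7sf2 stood at 25.0, 29.1 and 27.3 CPM with safe sgRNA, 21.6, 24.0 and 24.5 in the sgRNA 11 libraries, and 25.3, 23.3 and 25.5 in those of sgRNA 15. It fell with sgRNA 11 (log2 -0.21, SE 0.07, edgeR adjusted p = 0.00465), where its libraries lay below the safe ones, and was not called with sgRNA 15, where they overlapped (log2 -0.14, SE 0.07, adjusted p = 0.0765). The first value was -0.36 after the GC and length correction, its call was lost without sgRNA 11 replicate 1 (log2 -0.15, adjusted p = 0.0812), and the value with sgRNA 15 was called lower after the GC and length correction (-0.24) and without safe replicate 1, sgRNA 11 replicate 3 or sgRNA 15 replicate 3 (-0.20 to -0.15). Its exons share 12.1% of their length with Vps51 on the same strand, which makes it uncertain. Lbr stood at 384, 386 and 405 CPM with safe sgRNA, 394, 397 and 398 in the sgRNA 11 libraries, and 341, 349 and 337 in those of sgRNA 15. It was thus the reverse of Mvk and Tm7sf2, overlapping the safe libraries with sgRNA 11 (log2 0.02, SE 0.02, adjusted p = 0.560) and lying below them with sgRNA 15 (log2 -0.19, SE 0.03, adjusted p = 1.32e-10). The value with sgRNA 11 turned to -0.0046 without safe replicate 2. Lbr has 10.7% of its exon length opposite Dnah14, a gene at 1.03 CPM or less in each group's mean, and is called uncertain for that overlap. Ebp, a sterol isomerase, stood at 41.4, 42.1 and 39.1 CPM with safe sgRNA, 35.3, 35.3 and 35.2 in the sgRNA 11 libraries, and 38.5, 36.7 and 39.0 in those of sgRNA 15. All guide libraries lay below the safe ones, and Ebp was called with sgRNA 11 (log2 -0.21, SE 0.05, edgeR adjusted p = 3.08e-04) but not with sgRNA 15 (log2 -0.11, SE 0.05, adjusted p = 0.0760). The second value was called lower after the GC and length correction (-0.17) and without safe replicate 3, sgRNA 11 replicate 3 or sgRNA 15 replicate 3 (-0.15 to -0.12).

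Both sterol-handling genes fell (median log2 -1.10 and -0.81). Stard4, a cytosolic carrier that moves cholesterol between membranes, stood at 106, 101 and 101 CPM with safe sgRNA, 59.1, 58.7 and 54.8 in the sgRNA 11 libraries, and 74.9, 68.1 and 66.9 in those of sgRNA 15. The groups did not overlap (log2 -0.84 and -0.55, SE 0.04 each). Tmem97, a membrane protein that binds the lysosomal cholesterol exporter NPC1, stood at 133, 138 and 137 CPM with safe sgRNA, 53.3, 51.3 and 53.9 in the sgRNA 11 libraries, and 66.2, 64.6 and 62.5 in those of sgRNA 15. Its fall of 2.57-fold with sgRNA 11 (log2 -1.36, SE 0.04) was followed closely by 2.11-fold with sgRNA 15 (log2 -1.08, SE 0.04, edgeR adjusted p = 5.53e-42), the lowest estimate of the 28 genes with that guide.

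The 6 genes of the SREBP machinery did not move one way. Srebf2 and Insig1 fell with both guides, Insig2 and Mbtps1 rose with both, and Mbtps2 and Scap differed by guide. Srebf2 (ENSMUSG00000022463, mm10 chromosome 15, 82147181 to 82205379, plus strand) stood at 697, 702 and 720 CPM with safe sgRNA, 494, 482 and 510 in the sgRNA 11 libraries, and 538, 565 and 562 in those of sgRNA 15. The groups were apart, and the falls were 1.42-fold (log2 -0.51, SE 0.02, edgeR adjusted p = 1.65e-33) and 1.27-fold (log2 -0.35, SE 0.02, adjusted p = 4.11e-23). Scap, the escort protein, stood at 77.9, 85.0 and 87.1 CPM with safe sgRNA, 91.9, 88.1 and 92.0 in the sgRNA 11 libraries, and 84.3, 81.3 and 87.3 in those of sgRNA 15. It was called higher with sgRNA 11 (log2 0.13, SE 0.04, adjusted p = 0.00343) and not called with sgRNA 15 (log2 0.02, SE 0.04, adjusted p = 0.716). The call with sgRNA 11 ended without safe replicate 1, the lowest library (log2 0.08, adjusted p = 0.0922), and its sign turned after the GC and length correction (log2 -0.02). The value with sgRNA 15 was called lower after that correction (log2 -0.09, adjusted p = 0.0427). Scap also has 13.2% of its exon length opposite 5830462I19Rik, so its value is uncertain.

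The 2 INSIG genes, whose proteins both retain SCAP in the endoplasmic reticulum, went opposite ways. Insig1 (ENSMUSG00000045294, mm10 chromosome 5, 28071363 to 28078662, plus strand) stood at 148, 158 and 160 CPM with safe sgRNA, 58.2, 53.0 and 52.7 in the sgRNA 11 libraries, and 102, 108 and 104 in those of sgRNA 15. Its libraries formed 3 separate levels, with a fall with sgRNA 11 close to those of Hsd17b7 and Cyp51, 2.84-fold (log2 -1.50, SE 0.04, edgeR adjusted p = 3.28e-52), and a smaller one of 1.48-fold with sgRNA 15 (log2 -0.57, SE 0.04, adjusted p = 1.69e-25). Insig2 stood at 33.3, 35.0 and 32.6 CPM with safe sgRNA, 38.4, 37.4 and 37.5 in the sgRNA 11 libraries, and 41.0, 41.2 and 43.5 in those of sgRNA 15. All its guide libraries lay above the safe ones, and it rose with both (log2 0.17, SE 0.05, adjusted p = 0.00529, and 0.31, SE 0.05, adjusted p = 3.74e-07).

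The 2 SREBP proteases differed from each other as well. Mbtps1 (ENSMUSG00000031835, mm10 chromosome 8, 119508156 to 119558735, minus strand), which makes the first cut, stood at 125, 127 and 133 CPM with safe sgRNA, 171, 168 and 168 in the sgRNA 11 libraries, and 157, 171 and 164 in those of sgRNA 15. The guides overlapped each other and lay above all safe libraries (log2 0.40 and 0.36, SE 0.03 each, edgeR adjusted p = 4.23e-20 and 2.23e-17). Mbtps2 (ENSMUSG00000046873, mm10 chromosome X, 157535371 to 157598715, minus strand), which makes the second cut, stood at 58.3, 56.5 and 54.6 CPM with safe sgRNA, 54.4, 48.0 and 49.2 in the sgRNA 11 libraries, and 65.9, 66.1 and 66.8 in those of sgRNA 15. It lay below the safe libraries with sgRNA 11 (log2 -0.16, SE 0.05, adjusted p = 0.00215) and above them with sgRNA 15 (log2 0.23, SE 0.05, adjusted p = 9.46e-06). The lower call with sgRNA 11 ended after the GC and length correction (log2 -0.07, adjusted p = 0.139). Mbtps2 shares 28.4% of its exon length with Yy2 on the same strand, where reads can be ambiguous, so its value is uncertain.

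**Figure D3:**
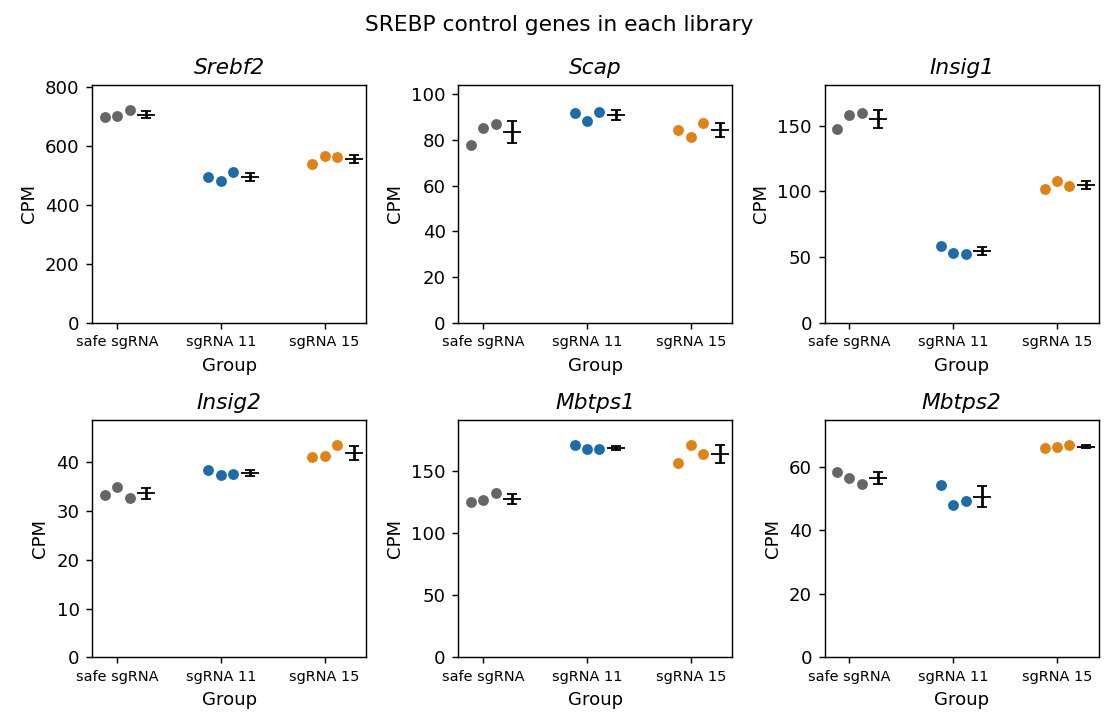
CPM (vertical axes, from 0) of the 6 SREBP control genes in each library, by group. Coloured points are the 3 libraries of a group and the black bar beside them is the mean ± SD; Insig1 falls from 148 to 160 CPM with safe sgRNA to 52.7 to 58.2 with sgRNA 11 and 102 to 108 with sgRNA 15, while Mbtps1 lies at 157 CPM or more with both guides.

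Set against each other, the guides differed at most of the 28 genes. With sgRNA 15 against sgRNA 11, 22 were higher, 2 lower (Lbr and Scap) and 4 not called (Ggps1, Tm7sf2, Ebp and Mbtps1) in the edgeR quasi-likelihood test. Among all tested genes 18% were called higher and 15.5% lower, and the median log2 difference was 0.44 for the 28. A difference of at least 1.5-fold was reached by 7 of the 28, all higher with sgRNA 15, against 2.10% of all tested genes. Insig1 differed most, 1.92-fold (log2 0.94, SE 0.04, adjusted p = 2.04e-35), followed by Cyp51 (log2 0.70, SE 0.04) and Hmgcs1 (log2 0.68, SE 0.05). Among genes that fell with both guides, the difference was small for Srebf2 (log2 0.16, SE 0.02), Pmvk (0.21, SE 0.06), Stard4 (0.28, SE 0.04) and Tmem97 (0.29, SE 0.04). At Lbr the order was turned (log2 -0.21, SE 0.03, adjusted p = 2.63e-11), with all sgRNA 15 libraries below those of sgRNA 11. The direct test also separated the guides at Mvk (log2 0.28, SE 0.06, adjusted p = 5.71e-05) and Mbtps2 (log2 0.39, SE 0.05, adjusted p = 3.10e-11). The difference at Scap (log2 -0.11, SE 0.04, adjusted p = 0.0243) was lost in 5 of 19 alternatives, among them those without sgRNA 11 replicate 3 or sgRNA 15 replicate 2. That at Insig2 (log2 0.15, SE 0.05, adjusted p = 0.0243) was lost in 7 of 19, among them those without sgRNA 11 replicate 2 or 3 or sgRNA 15 replicate 3. Mbtps1, not called here (log2 -0.04, SE 0.03, adjusted p = 0.304), was called lower without sgRNA 15 replicate 2 (-0.09).

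**Figure D4:**
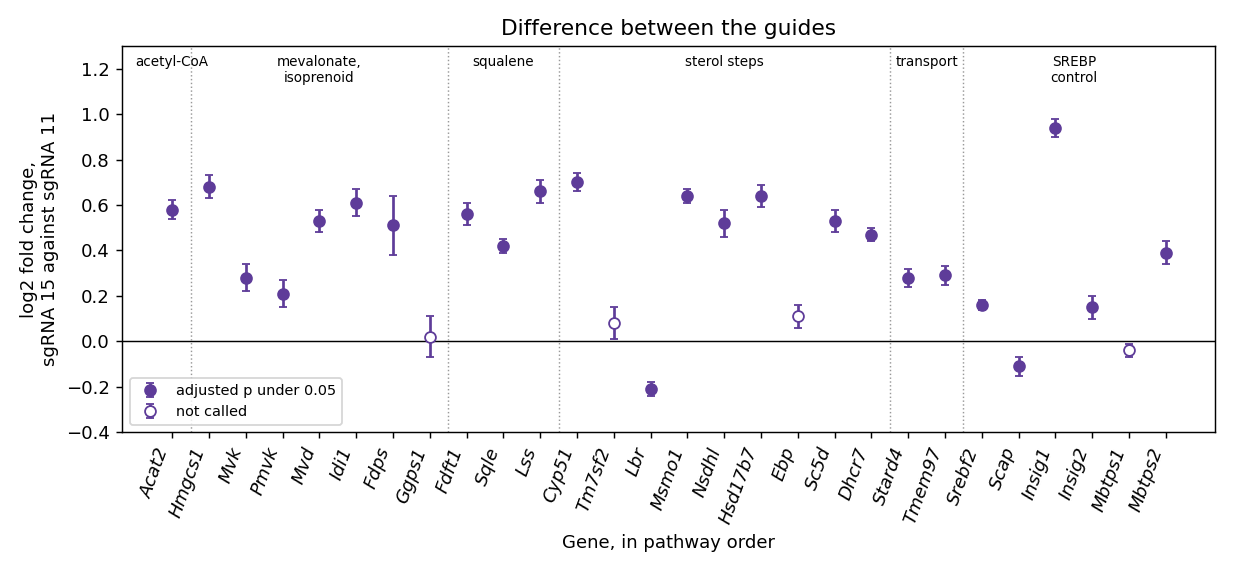
Log2 fold change of sgRNA 15 against sgRNA 11 (vertical axis, log2 units) for the 28 genes in pathway order. Points are edgeR estimates from 3 libraries a group with bars of 1 standard error, filled where the adjusted p is under 0.05; the values run from -0.21 at Lbr to 0.94 at Insig1.

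Levels between genes were compared as CPM per kilobase of exon. The length used covers all annotated exons of a gene, so these are not levels per transcript. With safe sgRNA the highest were Tmem97 at 98.9 ± 2.04 and Srebf2 at 98.3 ± 1.66, whose ranges overlapped, followed by Lbr at 82.3 ± 2.48 (SD, n = 3 each). The lowest were Ggps1 at 3.01 and Fdps at 2.65. The place of Fdps is uncertain, since its exons overlap another gene model and ambiguous reads were left out, so it may be undercounted. Most enzymes between Sqle, at 61.6, and Lss, at 8.64, formed a gradual series with several near neighbours, such as Nsdhl and Idi1 at 20.1 each. With sgRNA 11 Lbr led the order, and with sgRNA 15 Srebf2 did.

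**Figure D5:**
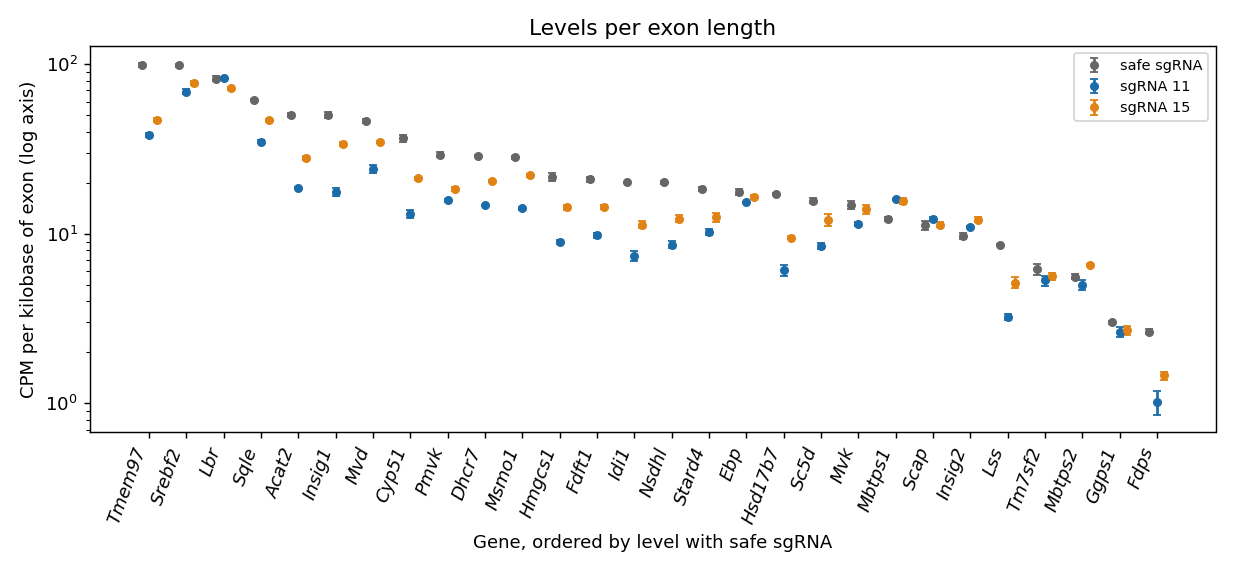
Level in CPM per kilobase of exon (log axis) of the 28 genes, ordered by their level with safe sgRNA, in the 3 groups. Points are means of 3 libraries and bars are SD. With safe sgRNA the levels run from 98.9 (Tmem97) to 2.65 (Fdps, which may be undercounted for its exon overlap). The guide points of most synthesis genes lie below the grey safe points.

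Neighbouring pathways gave mixed directions. Of 43 further listed genes 42 matched an identifier and 39 were tested, with Vldlr, Ch25h and Cyp7b1 below the filter. Of the 39, 17 were higher and 14 lower with sgRNA 11, and 17 were higher and 16 lower with sgRNA 15 (edgeR quasi-likelihood test, with the shares of all tested genes given above). The 4 genes of acetyl-CoA supply beside Acat2 fell with both guides, among them Acss2, which makes acetyl-CoA from acetate (log2 -1.24 and -0.66), the citrate carrier Slc25a1 (-0.98 and -0.74) and Acly, which splits citrate (-0.80 and -0.54). Of 12 genes that use isoprenoids, 5 fell and 2 rose with sgRNA 11, and 7 fell and 3 rose with sgRNA 15. Pdss1, which builds the side chain of coenzyme Q, fell most of these, from a mean of 18.6 to 8.74 and 9.30 CPM (log2 -1.09 with sgRNA 11).

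Of 10 genes of cholesterol uptake and lysosomal egress, 8 rose and 2 fell with sgRNA 11, and 7 rose and 2 fell with sgRNA 15. Beside this and the later count, 33.3% of all tested genes were called higher and 32.4% lower with sgRNA 11. With sgRNA 15 these shares were 32.2% and 30.7%. The endocytic receptor Lrp1 rose from a mean of 1797 to 2831 and 2616 CPM (log2 0.66 and 0.54). Scarb1, a receptor for high-density lipoprotein, fell from 195 to 129 and 125 CPM (log2 -0.60 and -0.64). Npc1, which carries cholesterol out of lysosomes, rose from 74.1 to 88.3 CPM with sgRNA 11 and to 128 with sgRNA 15 (log2 0.25 and 0.78). Cyp27a1, which makes an oxysterol from cholesterol, rose from 38.0 to 90.4 and 80.9 CPM (log2 1.25 and 1.09). Of 8 further genes that act on SREBPs or INSIGs, 4 rose and 2 fell with each guide. One was Srebf1, which encodes the related factor SREBP1, with means of 280, 213 and 264 CPM in the safe, sgRNA 11 and sgRNA 15 libraries (log2 -0.39 and -0.08, the second not called when scaled by library size only, -0.05, or without sgRNA 15 replicate 1, -0.05). Another was Erlin2, which takes part in sterol-regulated protein removal in the endoplasmic reticulum and rose with both (log2 0.38 and 0.44).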

How the data were processed

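RNA-seq libraries of J774A.1 cells fell into 3 groups of 3 by the guide in each title. The authors deposited read counts for each gene, made with STAR and HTSeq on mm10, per the submitters' processing notes. Their versions, the annotation, the strand setting and the mode of counting were not given in the sources used here. Rows that name no gene stayed out of library sizes and tests; they include reads ambiguous between features, 6.32 to 6.56% of each table, and reads aligned to more than 1 place, 6.20 to 6.69%, so overlapping genes and close copies are undercounted.

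Counts were fitted with edgeR 4.0.16 in R 4.3.3: filterByExpr (minimum count 10), TMM scaling, and a robust quasi-likelihood model over all 9 libraries with 6 residual degrees of freedom. The 4 contrasts set each guide and the mean of guides against safe sgRNA, and one guide against the other, with 2-sided F tests and Benjamini-Hochberg adjustment over 13453 genes. Exon length, overlaps (uncertain at 10% or more of exon length) and positions came from GENCODE M21 of the same build, and promoters from RefSeq. Values were given in full for all SREBP control genes and for genes not called with a guide. Among the other synthesis and sterol-handling genes, they were given for those with the lowest p for the mean of guides in each pathway group. That choice therefore used p-values from these same data. The genes and lists were chosen with earlier results of these data known. Deviations of same-numbered libraries correlated at -0.00774 to 0.0576, below the 0.1 set for pairing, and no replicate pair agreed within sampling noise. Alternatives were DESeq2 1.42.0, limma-voom (limma 3.58.1), other scalings, filters and fits, a GC and length correction (99.8% of tested genes had values), a replicate block, a 1.5-fold minimum and each library left out. The procedure was tested on simulated data.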

Additional observations from a re-analysis of the deposited data

How the results depend on the processing

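Over the alternatives tried, the counts of the 28 genes called lower ranged from 22 to 24 with sgRNA 11 and from 20 to 25 with sgRNA 15, apart from the 1.5-fold minimum. That minimum left 18 and 10 lower and 0 higher with either guide or for their mean, and 7 higher and 0 lower for sgRNA 15 against sgRNA 11. Over all tested genes it left 1238 lower and 1733 higher with sgRNA 11, 989 and 1612 with sgRNA 15, 1099 and 1639 for their mean, and 240 and 283 for sgRNA 15 against sgRNA 11. Genes lower with sgRNA 15 than with sgRNA 11 numbered 1 in place of 2 with DESeq2, with the GC and length correction alone or with the replicate block, and 1 to 2 with a library left out. The replicate numbers are not a pairing in the labels. While 5 of 9 libraries correlated best with their own number, same-numbered libraries correlated at 0.0576 or less, below the 0.1 set for pairing. The replicate block alone kept the counts of lower genes at 23, 20 and 24, and the one call it changed among the 28 was Scap for the mean of guides (log2 0.07, adjusted p = 0.0418). Scap turned with the GC and length correction, alone and with the block, to -0.02 and -0.02 with sgRNA 11, -0.09 and -0.08 with sgRNA 15, where it was called lower (adjusted p = 0.0427 and 0.0421), and -0.05 and -0.05 for the mean, and to -0.04 without safe replicate 1 and -0.02 without sgRNA 15 replicate 3 with sgRNA 15. Ggps1 between the guides turned to -0.07 and -0.07 under the same corrections, to -0.04 without sgRNA 11 replicate 3 and to -0.02 without sgRNA 15 replicate 1. With a library left out, Lbr with sgRNA 11 ranged from -0.0046 (without safe replicate 2) to 0.03, Mbtps2 for the mean from -0.0016 (without safe replicate 3) to 0.06, Scap with sgRNA 15 up to 0.04 and Slc12a9 with sgRNA 15 from -0.02 (without safe replicate 1) to 0.11. Slc12a9 with sgRNA 15 turned to -0.06 with the correction, alone or with the block. The cause of these changes was not tested. The GC and length correction moved the median of all genes by -0.05 with each guide and for their mean, a size near several of these values. The other scalings moved it by at most 0.04. Without Srebf2 the summed shares were 0.285%, 0.181% and 0.222%. Alternatives for genes outside the 28 were added after seeing the data. With 3 libraries a group, changes near those of Ggps1 lay at the edge of what the counts resolved.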

Other observations

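Nus1 and Dhdds moved apart, and they and Ebpl were chosen for mention with these values in view. Nus1 and Dhdds encode the subunits of the enzyme that elongates farnesyl diphosphate into the precursor of dolichol, the lipid carrier of protein glycosylation. Nus1 stood at 146, 136 and 143 CPM with safe sgRNA, 94.3, 92.6 and 95.2 in the sgRNA 11 libraries, and 116, 114 and 115 in those of sgRNA 15. Dhdds stood at 64.5, 64.5 and 64.2 CPM with safe sgRNA, 85.2, 86.6 and 88.6 in the sgRNA 11 libraries, and 79.5, 79.3 and 82.1 in those of sgRNA 15. Both formed 3 separate levels, in opposite order. In the edgeR quasi-likelihood test Nus1 fell (log2 -0.59 and -0.30, SE 0.03 each) and Dhdds rose (log2 0.43 and 0.32, SE 0.04 each), and neither lost its call in any of the 19 alternatives tried for each guide. Ebpl, a paralog of the sterol isomerase gene Ebp, stood at 10.5, 10.1 and 11.3 CPM with safe sgRNA, 17.5, 16.6 and 17.4 in the sgRNA 11 libraries, and 18.6, 15.3 and 17.9 in those of sgRNA 15. Its guide libraries lay above all safe ones (log2 0.69 and 0.70, SE 0.09 each), while those of Ebp lay below.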
